A study of Mus musculus with 2 samples.

Results

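The proliferation and DNA replication genes are 34 cell-cycle genes, listed by name, of which 33 were paired in the platform annotation with at least 1 probe set of their own, out of 18194 genes so paired on the array. They fall into 8 genes that act in G1 or at its end, 10 genes of DNA synthesis, called S-phase genes here, and 16 genes of G2 and mitosis, called mitotic genes. RNA came from the cerebrum of 1 wild-type sample and 1 lag mutant sample at postnatal day 14, and each was hybridised to 1 Affymetrix mouse array. lag is a spontaneous recessive mutation at a splice acceptor site of Kif14, a kinesin that acts in cytokinesis, kept by backcrossing to C57BL/6J, and the mutants studied carry it on both copies. The number and sex of the mice behind each array, and whether the wild-type sample was a littermate of the mutant, are not given for the arrays themselves. The labels name no transgene or drug for either sample. There are no replicates, so no difference below was tested against a spread between mice. In RNA of whole cerebrum, fewer cells of a type and less RNA per cell cannot be told apart.

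Cells in G1 that receive growth signals raise D-type cyclins, which activate Cdk4 and Cdk6 and free E2F factors from the pocket proteins. E2F factors then switch on the genes for replication, among them the Mcm helicase, the clamp Pcna and the enzymes that make deoxynucleotides. Later in the cycle a further programme, read through CHR elements and CCAAT boxes by the MuvB complex and NF-Y, switches on the mitotic kinases, spindle proteins and targets of the anaphase-promoting complex. In the cerebrum of a mouse of this age most neurons have left the cycle, while oligodendrocyte precursors, progenitors of the subventricular zone and dentate gyrus, microglia and vessel cells can still divide.

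The promoters of the members were searched for these elements because the genes are compared here by phase. RefSeq (GRCm38.p6) gave 31 promoter windows for 29 of the members, from 250 bases before to 50 after the start; Ccnd1, Ccnd2, Ccna2, Mcm4 and Tpx2 were not in the table. Both strands were searched for an E2F core (TTTCCCG, or TTTCGCG, or TTTGGCG, or TTTGCCG), a CHR element (TTTGAA or TTCGAA) and a CCAAT box (CCAAT), and matches may overlap. The CHR element was found in 11 of 14 mitotic promoters (78.6%), in 2 of 10 S-phase promoters (20%) and in 0 of 7 promoters of the G1 group, beside 19.2% of all 32851 promoters. The E2F core was found in 4 of 10 S-phase promoters (40%), 2 of 14 mitotic promoters (14.3%) and 1 of 7 promoters of the G1 group (14.3%), beside 6.70% of all promoters. The CCAAT box was in 9 of the S-phase (90%) and 13 of the mitotic promoters (92.9%), beside 37.4% of all. Median GC content was 57.3% for the S-phase, 57.8% for the mitotic, 67% for the G1 and 52.7% for all promoters, and short motifs match partly by base composition. These matches describe letters in a window and were not tested as binding sites.

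**Figure D1:**
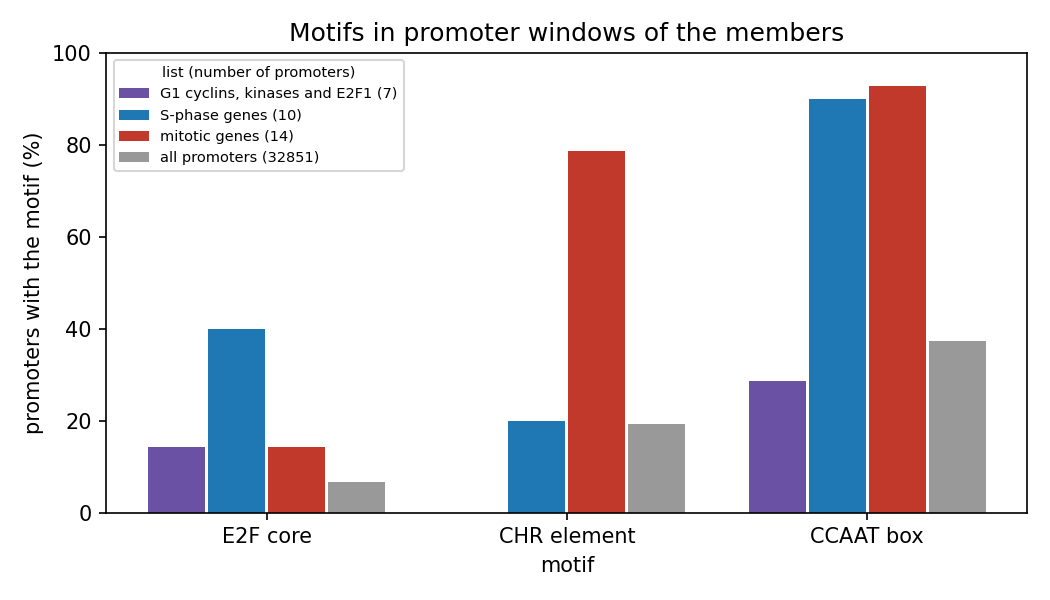
Share of promoter windows, in percent, that hold each motif on either strand, for the 3 groups of members and for all promoters; each bar is 1 list and the number of promoters is in the key. The bar of the CHR element stands at 78.6% for mitotic genes and at 19.2% for all promoters, and there is no bar for the G1 group, where 0 of 7 promoters held it.

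The 250 bases before the start are shown for 4 members whose motifs lie there: Mcm6, a subunit of the replicative helicase (chr1:128359706-128359955, minus strand), Cdk1, the kinase that drives entry into mitosis (chr10:69352913-69353162, minus strand), Cdc20, an activator of the anaphase-promoting complex (chr4:118437344-118437593, minus strand), and Mki67, which encodes the Ki-67 antigen of dividing cells (chr7:135716380-135716629, minus strand). Each is written 5′ to 3′ on the strand of the gene, and capitals mark matches to the 3 motifs on either strand.
Mcm6: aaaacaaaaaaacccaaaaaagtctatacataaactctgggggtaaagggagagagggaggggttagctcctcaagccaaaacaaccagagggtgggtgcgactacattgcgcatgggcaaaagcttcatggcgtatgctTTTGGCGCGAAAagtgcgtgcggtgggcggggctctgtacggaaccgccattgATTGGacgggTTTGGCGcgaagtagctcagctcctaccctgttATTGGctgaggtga
Cdk1: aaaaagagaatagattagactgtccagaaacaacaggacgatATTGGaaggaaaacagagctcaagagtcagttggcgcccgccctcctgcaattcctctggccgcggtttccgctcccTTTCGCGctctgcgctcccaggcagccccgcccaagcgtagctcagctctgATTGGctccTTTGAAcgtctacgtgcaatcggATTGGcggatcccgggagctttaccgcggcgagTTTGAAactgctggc
Cdc20: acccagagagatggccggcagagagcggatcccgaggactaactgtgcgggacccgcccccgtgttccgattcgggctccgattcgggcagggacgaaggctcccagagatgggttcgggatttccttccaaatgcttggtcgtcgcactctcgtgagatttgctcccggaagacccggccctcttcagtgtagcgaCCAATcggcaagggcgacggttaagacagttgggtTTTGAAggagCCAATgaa
Mki67: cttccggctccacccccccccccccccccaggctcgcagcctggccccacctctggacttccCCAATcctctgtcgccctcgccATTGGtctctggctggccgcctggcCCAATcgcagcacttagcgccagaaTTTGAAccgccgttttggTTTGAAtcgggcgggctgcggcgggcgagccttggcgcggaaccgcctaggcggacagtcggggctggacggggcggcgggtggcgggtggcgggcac
Mcm6 has 3 E2F cores, of which 2 overlap, and 2 CCAAT boxes but no CHR element. Cdk1 has 1 E2F core, 2 CHR elements and 3 CCAAT boxes, so it holds all 3 motifs. Cdc20 has 1 CHR element and 2 CCAAT boxes, and Mki67 has 2 and 3, and neither has an E2F core.

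The values compared are MAS5 signals, linear intensities scaled by the authors to a common mean, and pairs of signals are given with the wild-type first. Trimmed by 2% at each end, the mean signal of either array was 500.0. Background was taken from 129 probe sets for olfactory, vomeronasal and taste receptors and keratin-associated proteins, families with few transcripts in brain, as their 95th percentile, a signal of 48.5 (wild-type) or 49.2 (mutant). Each gene is represented by the brightest of its probe sets by mean signal, signals under background were raised to it, and a log2 ratio is the mutant over the wild-type signal. Signals of different probe sets do not rank transcripts, so levels are compared only between arrays. Among the 13907 genes that exceeded background on one or both arrays, the mutant signal was lower by 2-fold or more for 1.02% and higher for 0.762%, and by 1.5-fold or more for 3.53% and 4.31%. The median log2 ratio of these genes was 0.012. Kif14 itself, with signals of 6.85 and 0.733, lay under background on both arrays and does not check the labels. Of the cerebral cortex markers, Emx1 was at 233 and 343, Tbr1 at 992 and 1639 and Neurod6 at 3338 and 4557, so the markers measured were present on both arrays. All 3 had the higher signal in the mutant, with a median log2 ratio of 0.56.

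None of the 32 members above background differed 2-fold in either direction. All 32 were above background on both arrays, 21 had the lower signal in the mutant and 11 the higher, and their median log2 ratio was -0.065 with a range from -0.63 to 0.85. By 1.5-fold, 2 were lower, Bub1 and Plk1, and 2 were higher, Mcm4 and Ccnd2. Among the 11137 genes whose mean signal lay in the range of the members', the SD of the log2 ratio across genes was 0.357, and that of the members was 0.326. Probe sets of the same gene in that range differed among themselves with an SD of 0.308, which is a measure of how well 1 ratio is known on these arrays and does not include the spread between mice.

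A few members lay near background. Tyms, which makes thymidylate, was the only member under background on both arrays, with signals of 11.5 and 31.3, and none of its 4 probe sets was above it, so no ratio is given. Across the array 23.6% of genes were under background on both arrays. Ccnb1, the main mitotic cyclin B gene, was paired with no probe set of its own and was not analysed here. Within 2 times the mean background lay 3 members, Bub1, Bub1b and Cenpe, beside 2063 of all 13907 measured genes. Within 4 times lay 6 members, with Plk1, Tpx2 and Aurka added, beside 3735 of all measured genes. All 6 are mitotic genes, while every measured G1 and S-phase member lay higher. At the 99th percentile of the background probe sets, where the levels were 156 and 134, Bub1, Bub1b, Plk1, Cenpe and Tpx2 were under it on both arrays along with Tyms. The differences of Bub1 and Plk1 therefore rest on signals near the level of probe sets for genes not expected in brain. Of all 18194 genes paired, 11249 were above the 99th percentile levels on 1 or both arrays.

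**Figure D2:**
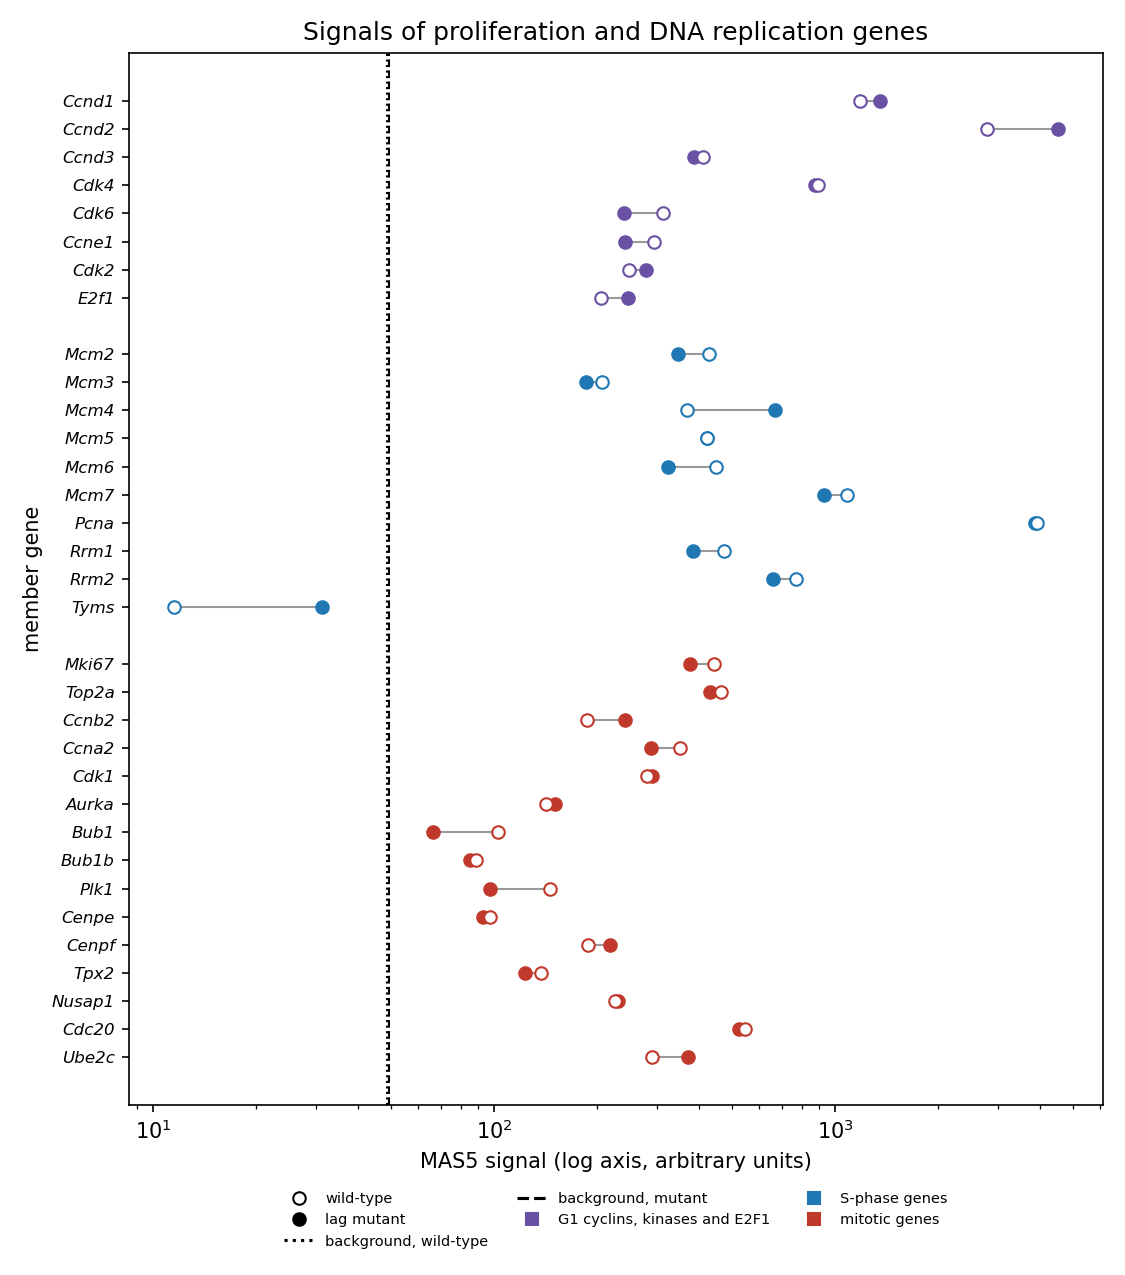
MAS5 signal (log axis, arbitrary units) of the brightest probe set by mean signal for each of 33 members; open circles are the wild-type and filled circles the lag mutant array, and vertical lines are the background levels of 48.5 and 49.2. Tyms lies left of the lines on both arrays, and the members nearest to them on the right are the mitotic genes Bub1, Bub1b and Cenpe.

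S-phase genes differed little, and how many were lower depended on the probe set read. By the brightest probe set 8 of the 9 measured were lower in the mutant and 1 was higher, with a median log2 ratio of -0.22 and a range from -0.47 to 0.85, beside 6674 lower and 7233 higher of all measured genes. With log2 ratios averaged over a gene's probe sets above background, 5 were lower and 4 higher, Mcm3, Rrm1 and Rrm2 having turned to 0.11, 0.028 and 0.013, and the median was -0.013. By 1.5-fold 1 of them differed, beside 4.57% of the 9098 genes in their range of mean signal. The Mcm2 to Mcm7 proteins form the ring-shaped helicase that unwinds DNA ahead of the fork, and their genes did not share a direction. Mcm6 had signals of 449 and 323, 1.39-fold lower, and its other probe set above background was lower as well. Mcm2 stood at 426 and 346, Mcm3 at 208 and 187 and Mcm7 at 1087 and 926. Another probe set of Mcm3 was higher in the mutant, at 89.9 and 121, a log2 ratio of 0.42. Mcm5 stood at 421 and 420. Mcm4 went the other way, with 368 and 665, 1.81-fold higher, but its other probe set gave 390 and 427, a log2 ratio of 0.13. Among probe sets of Mcm7, 3 were lower and 1 was higher, with log2 ratios from -0.27 to 0.65.

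Genes that supply the fork differed by as little. Pcna, the sliding clamp of the DNA polymerases, had signals of 3903 and 3868, a log2 ratio of -0.013. Rrm1 and Rrm2 encode the subunits of ribonucleotide reductase, which makes deoxynucleotides. Rrm1 stood at 472 and 384 and Rrm2 at 766 and 656, log2 ratios of -0.30 and -0.22. For both genes another probe set above background on both arrays was higher in the mutant, with log2 ratios of 0.35 for Rrm1 and 0.38 for Rrm2, so the probe sets do not give a direction for ribonucleotide reductase.

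Mitotic genes were split about evenly around no difference. Of the 15 measured, 9 had the lower and 6 the higher signal in the mutant, 13 were within 1.5-fold, and the median log2 ratio was -0.063 with a range from -0.63 to 0.37. Of the 5243 genes in their range of mean signal, 11.6% were past 1.5-fold in either direction. Mki67 had signals of 441 and 376, 1.17-fold lower. Top2a, the topoisomerase that untangles sister chromatids, stood at 462 and 430. These genes are common markers of dividing cells, and their ratios are smaller than the SD of 0.337 between probe sets of 1 gene in the range of the mitotic members.

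The cyclins and kinases of mitosis did not share a direction. Ccna2, a cyclin of S phase and G2, stood at 352 and 288, and its second probe set was lower too. Ccnb2, a B-type cyclin, went the other way, with 187 and 243, the highest ratio among mitotic members at 1.30-fold. Cdk1, their kinase partner, differed little, at 281 and 290. Aurka, a kinase of the spindle poles, was at 142 and 151. Plk1, a kinase of mitotic entry and spindle assembly, stood at 146 and 97.1, a log2 ratio of -0.59 on its single probe set.

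Spindle and checkpoint genes differed in both directions. Bub1, a checkpoint kinase at kinetochores, stood at 102 and 66.1, 1.55-fold lower, the lowest ratio of all members. Its checkpoint partner Bub1b stood at 88.4 and 85.2. The kinetochore motor gene Cenpe stood at 97.4 and 93.0, and Cenpf, a further kinetochore protein gene, at 189 and 218. Tpx2, which activates Aurora A on spindle microtubules, stood at 137 and 124, with 3 of its 4 probe sets lower. Nusap1, a protein that bundles spindle microtubules, was at 227 and 230. The genes for exit from mitosis were Cdc20, at 545 and 522, and Ube2c, a ubiquitin-conjugating enzyme of the anaphase-promoting complex, at 292 and 369, 1.27-fold higher.

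Set against each other, the median of mitotic genes was 0.16 higher on the log2 scale than that of S-phase genes. This order rested on the choice of probe set. With each gene's log2 ratio averaged over its probe sets above background, the S-phase median was -0.013 and the difference turned to -0.054. The S-phase and mitotic ratios overlapped over most of their range, so these arrays give no order of the groups that holds under both ways of reading the probe sets.

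Genes of G1 divided evenly. Of the 8 measured, 4 were lower and 4 were higher, with a median log2 ratio of 0.066, and 1 was past 1.5-fold, beside 4.36% of the 8574 genes in their range of mean signal. Ccnd2, a D-type cyclin of neural progenitors, had signals of 2784 and 4517, 1.62-fold higher. All 6 of its probe sets above background on both arrays were higher, the most for any member, with log2 ratios from 0.25 to 0.81. Ccnd1 stood at 1183 and 1359, and its 3 probe sets had log2 ratios from 0.20 to 0.30. Ccnd3 was at 409 and 385, a log2 ratio of -0.086 on its single probe set above background. This ratio is smaller than the SD of 0.302 between probe sets of 1 gene in the range of the G1 members. Ccnd1 and Ccnd2 were thus higher on every probe set above background on both arrays, though the Ccnd1 ratio of 0.20 is also smaller than this SD. Ccnd3, read on 1 probe set, gave no clear direction.

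The kinases bound by D cyclins had lower signals on each probe set above background, though the brightest probe set of Cdk4 differed little. Cdk4 stood at 889 and 871, with log2 ratios from -0.45 to -0.029 over 3 probe sets. Cdk6 stood at 313 and 240, 1.30-fold lower, and both of its probe sets above background were lower, down to -0.55. Ccne1, the cyclin E that opens S phase, stood at 295 and 243 with both probe sets lower, while its partner Cdk2 stood at 250 and 279. E2f1 stood at 206 and 246 on one probe set, and a second was lower, with a log2 ratio of -0.30.

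**Figure D3:**
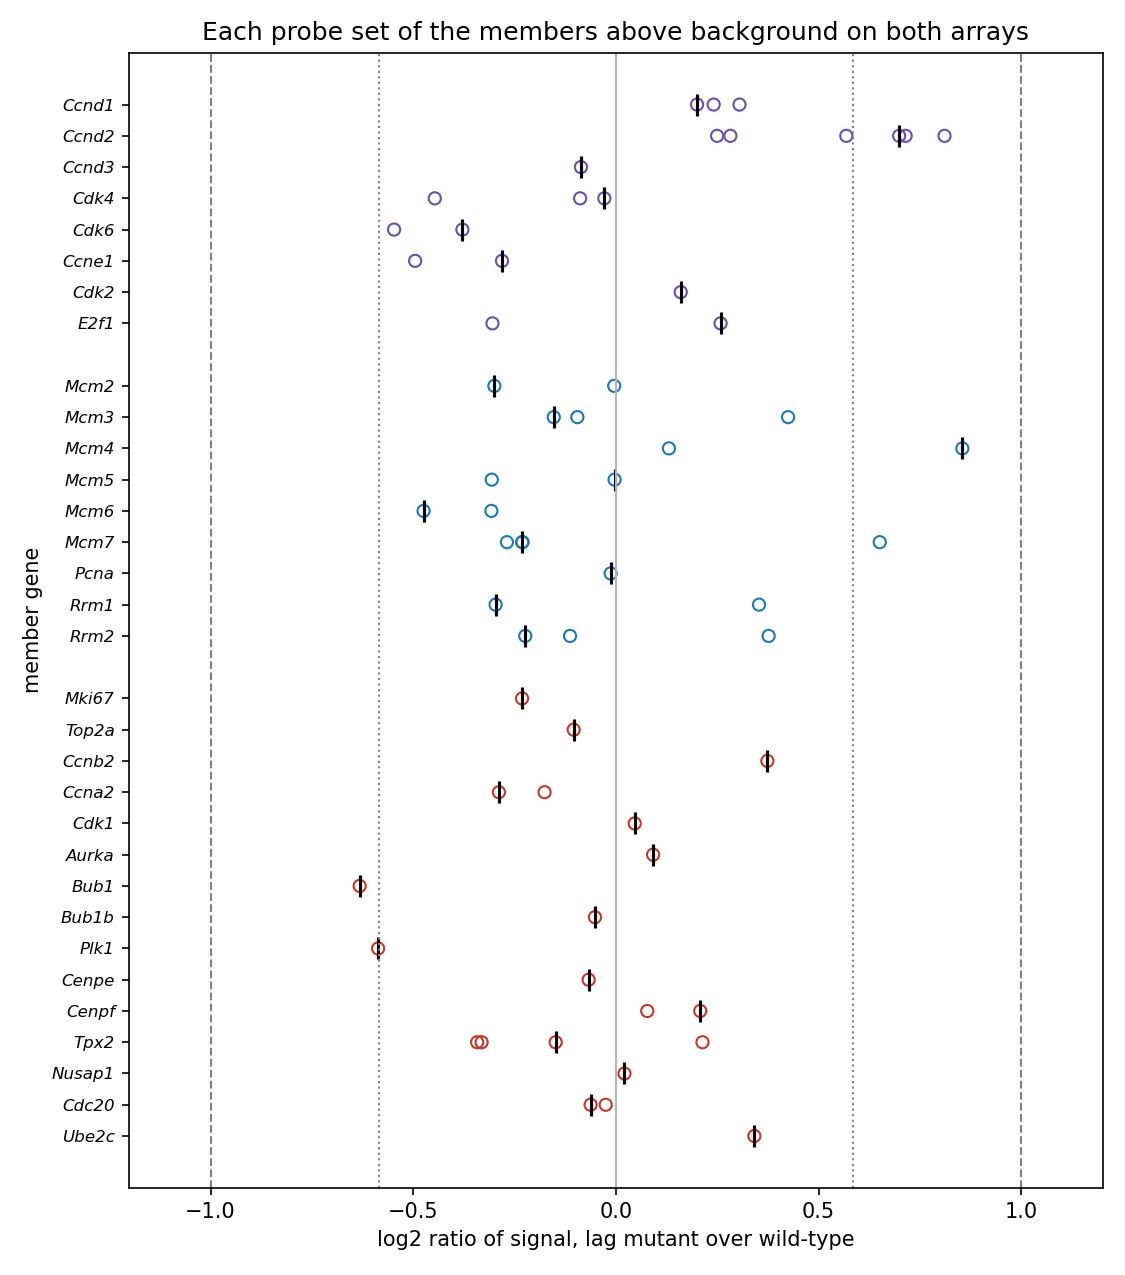
Log2 ratio of the mutant to the wild-type signal for the 62 probe sets of the members that were above background on both arrays; circles are probe sets, black ticks the value taken for the gene, dotted lines 1.5-fold and dashed lines 2-fold. All circles lie between the dashed lines, those of Ccnd2 and Ccnd1 lie right of 0, and those of Mcm3, Mcm7, Rrm1, Rrm2, E2f1 and Tpx2 lie on both sides.

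Counted by probe set, 87 were paired with 1 member alone, 62 were above background on both arrays and 0 of these differed 2-fold. They divided into 37 lower and 25 higher. Of 18 members with at least 2 such probe sets, 8 had all of them lower, 4 had all higher and 6 were mixed. Neither split was counted over all genes of the array, so neither is read as a trait of the members. The 8 were Ccna2, Ccne1, Cdc20, Cdk4, Cdk6, Mcm2, Mcm5 and Mcm6, the 4 were Ccnd1, Ccnd2, Cenpf and Mcm4, and the 6 were E2f1, Mcm3, Mcm7, Rrm1, Rrm2 and Tpx2.

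Other genes of the same pathways, taken from lists of replication, mitosis and cell-cycle inhibition, mostly stayed within 2-fold. Of 48 measured replication genes, 0 were 2-fold lower or higher, with a median log2 ratio of 0.018, beside 0.012 for all measured genes. The 3 with the highest signals were Rpa1, a subunit of the factor that coats single-stranded DNA, at 2188 and 1853, Dck, a deoxynucleoside kinase, at 2184 and 2001, and Slbp, which binds histone mRNA, at 1891 and 1935. Of 42 further mitotic genes, 15 were lower and 27 higher, with a median of 0.11, beside 6674 lower and 7233 higher of all measured genes. At least 2-fold higher were 2 of the 42, beside 0.762% of all measured genes, and 0 were 2-fold lower, beside 1.02%. By 1.5-fold 5 were higher, beside 4.31%, and 0 were lower, beside 3.53%. Of the 42, 40 were above background on both arrays. Kif23 and Kif20a entered the list, and these counts, through the mutant array alone, where their signals were the higher. Within 4 times the mean background lay 19 of the 42, beside 3735 of all 13907 measured genes. The shares given are not for genes of like signal, so no excess of higher genes is read from them. Bub3, a checkpoint protein gene, was at 2726 and 2339, and Cks1b, a small partner of the cyclin-dependent kinases, at 1254 and 1367.

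The exceptions were Pttg1 and Kif23. Pttg1 encodes securin, which holds separase inactive until anaphase, and had signals of 1202 and 3401, 2.83-fold higher. All 3 of its probe sets were higher in the mutant, and a second one stood at 259 and 927. The third stood at 25.4 and 64.7, with the wild-type signal under background. Kif23, a kinesin of the central spindle, stood at 40.6, under background, and 110, which is 2.26-fold higher with the wild-type signal raised to background. Its other 2 probe sets were under background on both arrays. Both signals of Kif23 were under the 99th percentile levels of the background probe sets, 156 and 134, so its difference rests on signals near background. Foxm1, a transcription factor that activates mitotic genes, stood at 152 and 245, 1.61-fold higher. Its other probe set above background on both arrays had a log2 ratio of only 0.055. Kif20a, a further central spindle kinesin, was at least 1.96-fold higher against a wild-type signal of 47.5, under background. Cdc25c of the mitotic list stood at 61.6 and 95.8, and Rfc3 of the replication list at 207 and 337, both past 1.5-fold. Like Kif23, Kif20a and Cdc25c were under the 99th percentile levels on both arrays. Foxm1, Kif20a, Cdc25c and Rfc3 were named after their values were seen.

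Inhibitors of the cycle and pocket proteins had 5 genes lower and 7 higher of 12 measured, none by 2-fold, with a median of 0.063. Cdkn2d, an inhibitor of Cdk4 and Cdk6, stood at 2920 and 3081 and Rb1, the retinoblastoma protein gene, at 1557 and 1665. Cdkn1b, the p27 inhibitor, stood at 1967 and 1440, a log2 ratio of -0.45. Cdkn1a, the p21 inhibitor, stood at 1120 and 1778, 1.59-fold higher, and was named after its values were seen.

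**Figure D4:**
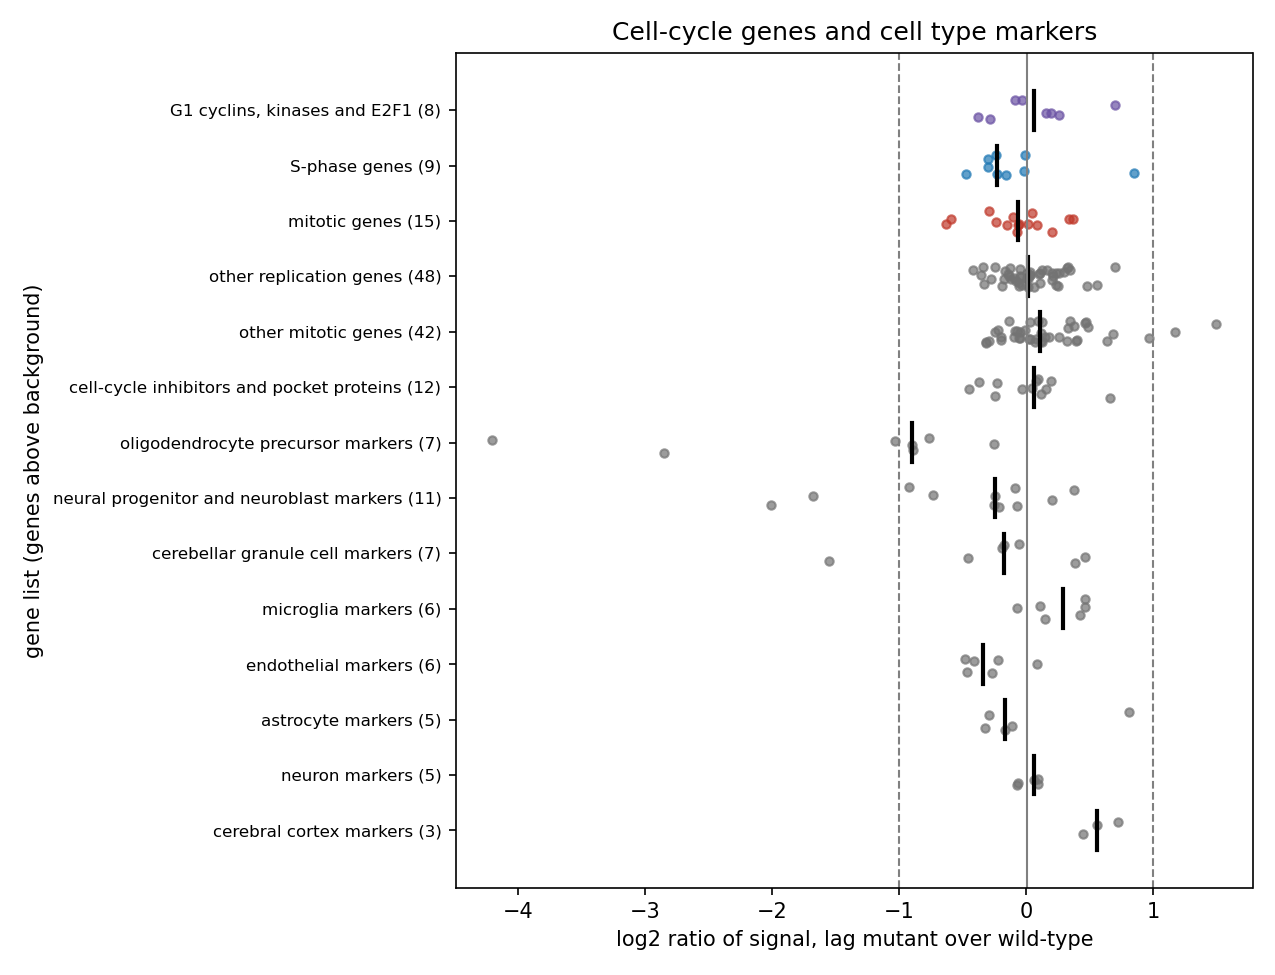
Log2 ratio of the mutant to the wild-type signal for genes above background in the 3 groups of members, 3 further cell-cycle lists and 8 lists of cell type markers; each point is a gene, black bars are medians, the grey line is the median of all measured genes and dashed lines are 2-fold. The medians of the member groups lie between -0.22 and 0.066, and that of oligodendrocyte precursor markers at -0.89.

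Markers of oligodendrocyte precursors and of neural progenitors, cells that can divide at this age, were read on the same arrays, where 1.02% of all measured genes were at least 2-fold lower. All 7 oligodendrocyte precursor markers had lower signals in the mutant, with a median log2 ratio of -0.89, summed signals of 19540 and 11314 and none under background. Sums weigh the brightest probe sets most, here those of Ptprz1 and Olig1, and do not measure the amount of a cell type. Gpr17, Sox10, Olig1 and Olig2 are in the paper's list of decreased genes from these same arrays. The count of lower markers is therefore not independent of that list. The 3 at least 2-fold lower were Gpr17, a receptor of cells about to differentiate, at 2259 and 123, Sox10, a factor of the whole lineage, at 637 and 88.2, and Cspg4, the NG2 proteoglycan, at 344 and 168. Second probe sets of Sox10 and Cspg4 were lower by less than 2-fold, with log2 ratios of -0.78 and -0.76. Pdgfra, the growth factor receptor of precursors, stood at 2508 and 1481. The paper's real-time PCR of whole brain at earlier ages found no noticeable difference in Pdgfra or Olig2 mRNA. Its counts of Olig2 and PDGFRα cells in embryonic neocortex did not differ significantly. Those samples differ from these arrays in age, and the PCR also in tissue. Of 11 measured markers of progenitors and neuroblasts, 9 were lower, 2 at least 2-fold, and 2 were higher, with a median log2 ratio of -0.24 and summed signals of 20737 and 17506. The 2 higher were Nes, the intermediate filament of neural stem cells, at 189 and 218 with both probe sets higher, and Hes5, a target of Notch signalling, at 340 and 443, of which a second probe set had a log2 ratio of -0.038. Eomes, a factor of intermediate progenitors, stood at 453 and 113, Igfbpl1, a gene of young neuroblasts, at 186 and 58.0, and Dlx2, of interneuron progenitors, at 393 and 236, while Sox2 stood at 2880 and 2748 and Dcx, of migrating neurons, at 3403 and 2938.

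Markers of other dividing or neighbouring cells differed in both directions. Of 6 measured microglia markers 5 were higher, with a median log2 ratio of 0.29 and summed signals of 6947 and 7920, and of 6 endothelial markers 5 were lower, with a median of -0.34 and summed signals of 3552 and 2963. Of 5 astrocyte markers 4 were lower, with a median of -0.16, and the 5 neuron markers had a median of 0.065. The other astrocyte marker, Gfap, stood at 156 and 274, 1.76-fold higher, with log2 ratios from -0.014 to 0.81 over 3 probe sets. Granule cells of the cerebellum also divide after birth. Of their 8 markers 7 were measured, 5 lower and 2 higher, with a median log2 ratio of -0.17 and summed signals of 7352 and 8477. Zic1 alone, at 4938 and 6469, made up most of both sums. Atoh1, which defines the progenitors, was under background on both arrays, Barhl1 was just above background on the wild-type array and at 39.6 on the mutant array, and Barhl2 stood at 48.1 and 67.2. Gabra6, of mature granule cells, was at 144 and 41.6. Neurod1, Pax6, Zic1 and Zic2, above background on both arrays, are not restricted to the cerebellum. The part of any of these cell types in the values of the proliferation genes was not tested.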

How the data were processed

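RNA of cerebrum at postnatal day 14 had been hybridised to 2 Affymetrix mouse arrays, 1 per genotype. The authors computed signals in Microarray Suite (MAS5.0) at its defaults, scaled globally, and deposited them as linear intensities of 45101 probe sets, with no detection call. MAS5 is also the tool listed in the submitters' processing notes. No source used here states the scaling target. In the platform annotation 34958 probe sets had 1 gene, and only these were named, while 932 had several and 9211 had none. Symbols followed gene identifiers in RefSeq (GRCm38.p6), where 34754 matched.

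Log2 ratios were computed with Python 3.11.15, numpy 2.4.6 and pandas 2.3.3, and plotted with matplotlib 3.10.9. No test was run, since the number of arrays allows none and limits the precision. The steps were tested on simulated data. Members and lists were chosen with earlier results of these data known. All members were accounted for; of the further cell-cycle lists, genes past 2-fold and the 3 of highest mean signal were named, and others as stated. Alternatives changed the background level, the probe set, the normalization and the fold.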

Additional observations from a re-analysis of the deposited data

How the results depend on the processing

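No paired analysis was possible because only 1 array per genotype was hybridised. Of 92 pairs of a summary (a count or a median of a list) and an alternative, 78 kept the count within 1.5 times or the median within about 1 standard error, taken from the spread among probe sets of 1 gene. At the 99th percentile of the background probe sets, 6 members lay under background on both arrays. With no background level 0 did, and 1 member, Tyms, was at least 2-fold higher, on signals under the level used in the report. With probe sets without _s_, _x_ or _a_ in their names only, 2 members were under background and the G1 median was -0.086. With log2 ratios averaged over all probe sets above background, the S-phase median was -0.013, that of inhibitors and pocket proteins -0.10, and the difference of mitotic minus S-phase medians -0.054. With the probe set of largest decrease, which also moved the median of all measured genes to -0.066, medians were -0.20 for the G1 group, -0.11 for other replication genes, 0.046 for other mitotic genes and -0.16 for inhibitors and pocket proteins. At 1.5-fold, 2 members were lower and 2 higher. The cause of these moves was not tested. One background level for both arrays, added after seeing the data, moved no summary. The count of all genes past 2-fold moved more: 980 were lower and 1232 higher with no level, 74 and 31 at the 99th percentile, 162 and 177 at the 90th percentile, and 300 and 78 with the probe set of largest decrease, against 142 and 106. Of 281 pairs of a member and an alternative, 274 moved the log2 ratio by less than that spread (SD 0.308). A new background level leaves the ratio of a member above it on both arrays unchanged, and members under it were not counted. Centring shifts all ratios alike. The 274, and in part the 78, were therefore kept by construction and do not measure robustness. The 7 others were of Mcm4 (down to 0.13), Rrm1 (0.028), Ccnd2 (0.25), Cdk4 (-0.45) and E2f1 (-0.30). All 7 came from alternatives that changed how probe sets were chosen or averaged. Signals near background limit Bub1, Bub1b, Cenpe, Plk1 and Tpx2 most.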
